A study of Vitis vinifera with 6 samples.

Results

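Expression of 6 genes of abscisic acid (ABA) metabolism was measured in a seedless somatic variant of the wine grape Sangiovese, hereafter the mutant, and in the seeded wild-type clone. They were taken by identifier, as 6 of the 28059 gene models in the deposited expression table, and comprise 3 genes for 9-cis-epoxycarotenoid dioxygenase (NCED: VIT_19s0093g00550, VIT_10s0003g03750 and VIT_05s0051g00670), 1 for zeaxanthin epoxidase (VIT_07s0031g00620) and 2 for ABA 8'-hydroxylase (VIT_18s0001g10500 and VIT_02s0087g00710). All 6 were found in the table, which carries identifiers only, so that the enzyme names come with the list of identifiers. Poly(A) RNA was sequenced from both clones at 3 stages of the modified Eichhorn-Lorenz (E-L) scale, namely flowers before fertilization (E-L 15), young enlarging berries (E-L 27) and harvest-ripe berries (E-L 38). Both clones were vines of the same germplasm collection, and neither carried a treatment. Each clone and stage was represented by 1 library, made from 1 inflorescence or bunch with the RNA of 3 extractions pooled, so that plant-to-plant variation within a clone and stage was not measured.

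ABA is made from carotenoids. Zeaxanthin epoxidase converts zeaxanthin to violaxanthin in plastids, NCED cleaves 9-cis-epoxycarotenoids to xanthoxin, which is widely regarded as the rate-limiting step, and ABA 8'-hydroxylase, a cytochrome P450, opens the main breakdown route towards phaseic acid. In grapevine the hormone is known for its part in the onset of berry ripening, and in seeds generally for maturation and dormancy.

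The libraries held between 70331451 and 98800321 uniquely mapped reads in gene models. Levels are given in RPM, the read count scaled to a common library total, in which 1 read was worth 0.0101 to 0.0142 RPM. RPM is not divided by transcript length, so levels were compared between libraries and not between genes. The 10 most abundant genes took 8.78% of reads in ripe mutant berries and 6.80% in ripe wild-type berries, and 2.82% to 3.64% in the other 4 libraries. Ratios between 2 libraries are given with a 95% exact (Clopper-Pearson) interval, which covers counting error only. The ripe libraries were also those in which seed genes differed most between the clones. The summed level of 8 seed genes, named by the study from these same libraries, was 19, 3.24 and 1.51 RPM in the mutant at E-L 15, 27 and 38, against 13.6, 6.68 and 951.5 RPM in the wild-type, and all 8 were lower in both kinds of mutant berries, with 4 of them at 0 in the ripe ones. The floral identity genes PISTILLATA and AP3 together gave 938.7 RPM in mutant and 1076 RPM in wild-type flowers, and no more than 21.9 RPM in any berry library.

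At the young stages the bulk of the NCED reads came from VIT_19s0093g00550 and VIT_10s0003g03750. The level of VIT_19s0093g00550 was 30.3 RPM at E-L 15, 47.3 RPM at E-L 27 and 1.78 RPM at E-L 38 in the mutant, against 28.9, 50.9 and 5.12 RPM in the wild-type at the same stages. It was therefore highest in young berries of both clones and lowest in ripe ones. From E-L 27 to E-L 38 it was 26.6-fold lower in the mutant (interval 22.3 to 32) and 9.94-fold lower in the wild-type (9.07 to 10.9). These 2 changes differed by 2.68-fold (2.18 to 3.30). With TMM factors in place of RPM, the falls were 20.0-fold in the mutant and 7.94-fold in the wild-type, outside the counting intervals. Mutant and wild-type were close before ripening, with a ratio of 1.05 (0.995 to 1.11) in flowers and 0.929 (0.888 to 0.971) in young berries. In ripe berries the mutant held 126 reads of this gene and the wild-type 506, a level 2.88-fold lower in the mutant (2.37 to 3.53). In such bulk samples fewer cells of a type and less RNA per cell cannot be told apart.

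The second NCED gene, VIT_10s0003g03750, was highest in flowers. It gave 55.2, 26.2 and 4.71 RPM at E-L 15, 27 and 38 in the mutant, against 46.8, 32.3 and 6.65 RPM in the wild-type. The level declined at each step in both clones. Between E-L 15 and E-L 27 it was 2.11-fold lower in the mutant (2.0 to 2.22) and 1.45-fold lower in the wild-type (1.39 to 1.52). The ratio of mutant to wild-type was 1.18 (1.13 to 1.23) at E-L 15, 0.813 (0.766 to 0.862) at E-L 27 and 0.709 (0.619 to 0.810) at E-L 38, so that the mutant was the higher clone in flowers and the lower one in berries. Among all genes averaging 1 RPM or more, 13.0% had a higher ratio at E-L 15. A lower ratio was found for 14.5% at E-L 27 and 15.4% at E-L 38.

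The third NCED gene, VIT_05s0051g00670, had the opposite course. It was represented by 8, 9 and 213 reads at E-L 15, 27 and 38 in the mutant (0.0909, 0.128 and 3.0 RPM), against 8, 6 and 296 reads in the wild-type (0.0864, 0.0665 and 3.0 RPM). Flowers and young berries did not differ beyond counting error in either clone, and most of its reads lay in the ripe libraries. From E-L 27 to E-L 38 its level was 23.5-fold higher in the mutant (12.1 to 52.1) and 45.1-fold higher in the wild-type (20.5 to 124). In ripe berries the ratio of mutant to wild-type was 1.0 (0.837 to 1.20), and no difference was detectable at this depth.

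Zeaxanthin epoxidase, VIT_07s0031g00620, differed little between the clones at any stage. The mutant gave 86.7, 72.7 and 12.7 RPM at E-L 15, 27 and 38, against 91.0, 66.7 and 11.5 RPM in the wild-type. The ratio of mutant to wild-type was 0.953 (0.924 to 0.983), 1.09 (1.05 to 1.13) and 1.10 (1.01 to 1.21) at the 3 stages. Both clones showed nearly the same decline between E-L 27 and E-L 38, 5.73-fold in the mutant (5.34 to 6.16) and 5.81-fold in the wild-type (5.45 to 6.19). With TMM factors it was 4.31-fold in the mutant and 4.64-fold in the wild-type, outside the counting intervals.

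**Figure D1:**
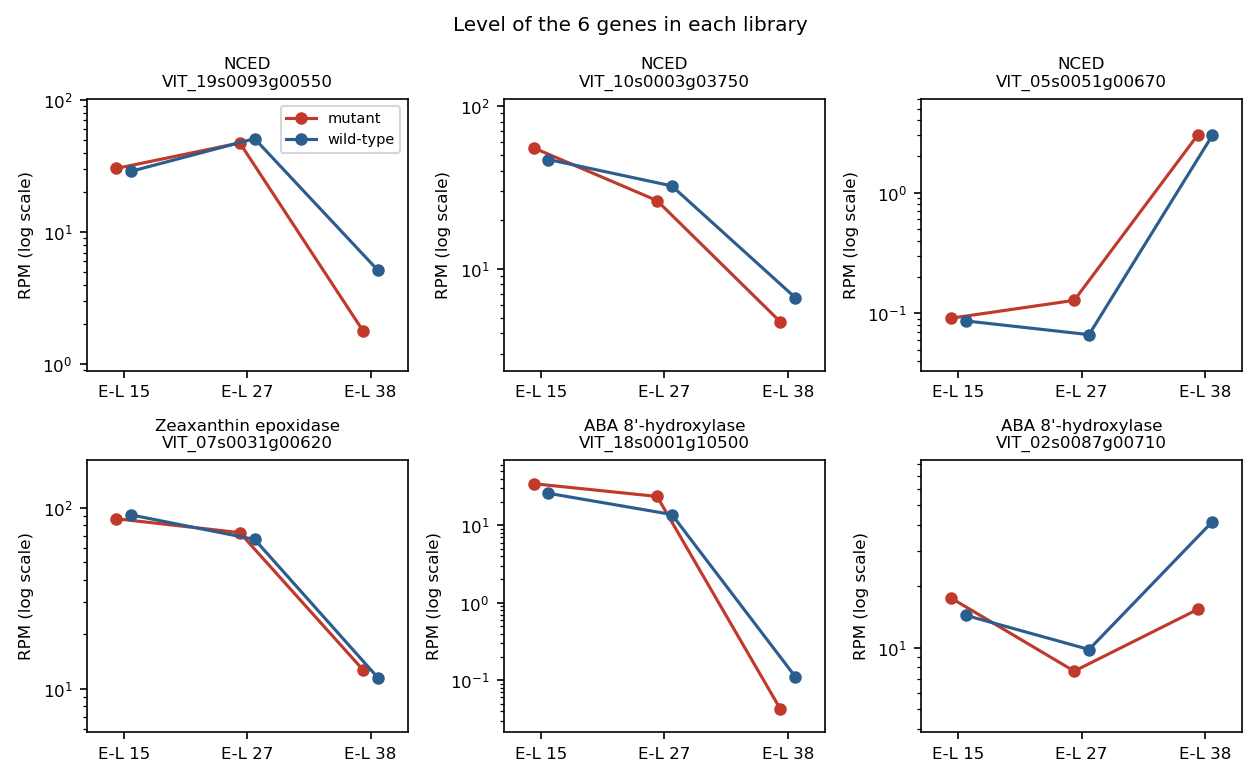
Level of each of the 6 genes (RPM, log scale) against stage, with 1 point per library, the mutant in red and the wild-type in blue. The NCED gene VIT_05s0051g00670 reached 3.0 RPM in ripe berries of both clones. VIT_19s0093g00550 stood at 1.78 RPM in the ripe mutant and 5.12 RPM in the ripe wild-type. Levels are to be compared between libraries and not between genes.

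On the breakdown side, the hydroxylase gene VIT_18s0001g10500 was a gene of flowers and young berries. It gave 34.5, 23.6 and 0.0423 RPM at E-L 15, 27 and 38 in the mutant, against 25.9, 13.8 and 0.111 RPM in the wild-type. The mutant was higher at both young stages, with a ratio of 1.33 (1.26 to 1.40) in flowers and 1.71 (1.59 to 1.84) in young berries. Only 1.05% of the 18787 genes averaging 1 RPM or more at E-L 27 had a higher ratio. In ripe berries only 3 reads were found in the mutant, against 11 in the wild-type, and the ratio of 0.380 (0.0681 to 1.44) left the 2 clones indistinguishable at this depth. From E-L 27 to E-L 38 the level was 124-fold lower in the wild-type (69.0 to 249), and in the mutant, where the later count was 3 reads, the ratio was 0.00179 (0.000369 to 0.00524).

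The other hydroxylase gene, VIT_02s0087g00710, was read at all stages, with its lowest RPM in young berries of both clones and a higher one in ripe berries. The mutant gave 17.5, 7.66 and 15.4 RPM at E-L 15, 27 and 38, against 14.4, 9.79 and 41.6 RPM in the wild-type. The ripe wild-type was the highest of the 6 libraries. From E-L 27 to E-L 38 the level was 2.01-fold higher in the mutant (1.81 to 2.23) and 4.25-fold higher in the wild-type (3.95 to 4.57), changes that differed by 2.11-fold (1.86 to 2.40). With TMM factors the rises were 2.67-fold in the mutant and 5.32-fold in the wild-type, outside the counting intervals. The ratio of mutant to wild-type was 1.22 (1.13 to 1.31) in flowers and 0.783 (0.702 to 0.872) in young berries. Among all genes averaging 1 RPM or more, 10.1% had a higher ratio in flowers and 11.7% a lower one in young berries. In ripe berries, with 1092 reads in the mutant against 4109 in the wild-type, the mutant was 2.70-fold lower (2.52 to 2.89). It was 2.49-fold lower with TMM factors and 2.45-fold lower with DESeq size factors, both outside that interval. Against flowers of the same clone, ripe berries stood at 0.878 times the level in the mutant (0.812 to 0.949) and at 2.88 times the level in the wild-type (2.71 to 3.07). The mutant value is not firm in its direction, since it became 1.19 under TMM factors and 1.21 under DESeq size factors.

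The comparison of the clones thus gave 2 members more than 2-fold lower in the ripe mutant, VIT_19s0093g00550 on the synthesis side and VIT_02s0087g00710 on the breakdown side. At each stage 5 of the 6 members averaged 1 RPM or more over the 2 libraries, VIT_05s0051g00670 being set aside at E-L 15 and E-L 27 and VIT_18s0001g10500 at E-L 38. None of the 5 was past 2-fold at E-L 15, where 0.786% of all genes were lower and 0.388% higher in the mutant, nor at E-L 27, where 2.48% were lower and 0.591% higher. At E-L 38, 2 of the 5 were lower and 0 higher, beside 7.4% of 16946 genes lower and 1.82% higher. The members' median log2 ratio was 0.24, -0.11 and -0.50 at the 3 stages, beside -0.02, -0.03 and -0.09 for all genes. Each median is the value of 1 gene, VIT_10s0003g03750 at E-L 15 and E-L 38 and VIT_19s0093g00550 at E-L 27. The 5 members were also not the same at E-L 38 as before, so the medians give no trend of the set. Among all genes, 4.28% had a lower ratio at E-L 38 than VIT_19s0093g00550 and 4.66% a lower one than VIT_02s0087g00710. The seed genes were also lower in the ripe mutant, at a summed 1.51 RPM against 951.5 RPM in the ripe wild-type. The study had named them from these same libraries. Their part in the result was not tested. ABI3, the seed-maturation transcription factor of ABA signalling (VIT_07s0005g05400), is among these seed genes, so its values are part of those sums. It gave 0.0455, 0 and 0 RPM at the 3 stages in the mutant, against 0, 0.0775 and 22.1 RPM in the wild-type.

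**Figure D2:**
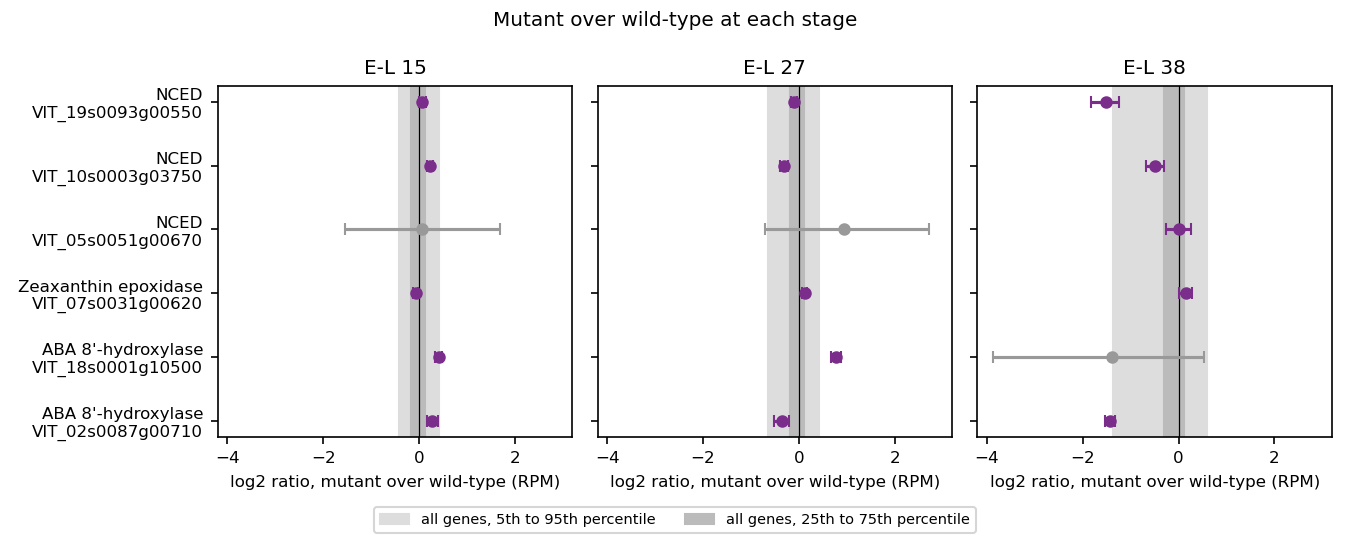
Log2 ratio of mutant to wild-type (RPM) for each member at each stage, with 95% counting intervals, over the 5th to 95th (light grey) and 25th to 75th (dark grey) percentiles of all genes averaging 1 RPM or more. Grey points mark members below that mean, and at E-L 38 the genes VIT_19s0093g00550 and VIT_02s0087g00710 lie at 2.88-fold and 2.70-fold lower in the mutant.

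A clone difference shared by the 3 stages was tested with edgeR's quasi-likelihood test on the read counts, with stage as a term and 2 residual degrees of freedom. None of the 6 members passed, and the background was 0% of 23570 genes at an adjusted p below 0.05 (1212 at an unadjusted p below 0.05, and 61 called by DESeq2). The fitted log2 fold changes of mutant over wild-type were -0.42 ± 0.33 (SE) for VIT_19s0093g00550, -0.13 ± 0.15 for VIT_10s0003g03750 and 0.32 ± 0.31 for VIT_05s0051g00670. They were 0.12 ± 0.09 for VIT_07s0031g00620, 0.44 ± 0.29 for VIT_18s0001g10500 and -0.45 ± 0.34 for VIT_02s0087g00710. Adjusted p ranged between 0.807 and 0.857 (edgeR, Benjamini-Hochberg). Leaving out 1 library moved all 6 of these values by more than 1.5 times. With 1 library per clone and stage, leaving out either library of a stage takes that stage out of the clone comparison. The 2 fits of a stage are therefore 1 check and not 2. Without the mutant or the wild-type E-L 38 library VIT_02s0087g00710 stood at -0.0055 and -0.0069 and VIT_19s0093g00550 at 0.0036 and 0.0034, and without the mutant or the wild-type E-L 27 library VIT_18s0001g10500 stood at 0.063 and 0.078 and VIT_05s0051g00670 at 0.11 for both. VIT_10s0003g03750 stood at -0.0063 and -0.0066 and VIT_07s0031g00620 at 0.049 for both without the mutant or the wild-type E-L 38 library. A difference restricted to 1 stage, as in ripe berries, has no replicate check in this design.

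The stage contrasts, in which the 2 clones stand in for replicates, called 1 member between flowers and young berries and all 6 between young and ripe berries. At E-L 27 against E-L 15, VIT_10s0003g03750 was lower (log2 fold change -0.80 ± 0.18, adjusted p = 0.0477, edgeR), beside a background of 11.4% of genes lower and 10.7% higher. Without any 1 of the 4 libraries of those stages its log2 fold change was -1.08 to -0.51, with an adjusted p of 0.113 to 0.289, but these edgeR fits called 0 genes at all (5003 to 5682 at an unadjusted p below 0.05). Without either E-L 38 library, in contrast, 5 of the 6 members were called by edgeR. A large share of all genes was called as well. It was 9509 of 24151 tested genes without the mutant and 9633 of 24018 without the wild-type library. VIT_19s0093g00550 was then higher (log2 fold change 0.74, adjusted p = 0.0052 to 0.0054), and VIT_10s0003g03750, VIT_07s0031g00620, VIT_18s0001g10500 and VIT_02s0087g00710 were lower (-0.79, -0.34, -0.72 and -0.86, adjusted p = 0.0140 to 0.0405 in edgeR). At E-L 38 against E-L 27, 4 members were lower, beside 34.1% of all genes, and 2 were higher, beside 29.9%. The lower ones were VIT_18s0001g10500 (log2 fold change -7.39 ± 0.46), VIT_19s0093g00550 (-3.56 ± 0.43), VIT_07s0031g00620 (-2.16 ± 0.12) and VIT_10s0003g03750 (-2.00 ± 0.19). The higher ones were VIT_05s0051g00670 (5.34 ± 0.40) and VIT_02s0087g00710 (1.98 ± 0.42). Adjusted p ranged between 0.000501 and 0.0153 (edgeR, Benjamini-Hochberg), and that of VIT_02s0087g00710 became 0.0738 without the mutant E-L 27 library and 0.0969 without the wild-type E-L 27 library, at log2 fold changes of 2.06 and 1.87. Without a ripe library, the size of the change moved further for 3 members than for the others. For VIT_02s0087g00710 it was 2.55 without the mutant and 1.25 without the wild-type E-L 38 library, for VIT_19s0093g00550 -2.95 and -4.36, and for VIT_18s0001g10500 -6.72 and -8.58, all 3 genes being called in these edgeR fits. On the RPM scale the median gene was itself lower at E-L 38 than at E-L 27, by a log2 ratio of -0.41 for the mutant and -0.33 for the wild-type, whereas TMM factors, used in the edgeR fit, placed it at 0.00 for the mutant and -0.01 for the wild-type. None of the 6 members changed direction in this step under either scaling.

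The turnover within each enzyme family can be expressed as shares of the family's reads, which do not depend on the scaling between libraries. VIT_19s0093g00550 made up 35.4%, 64.2% and 18.7% of NCED reads at E-L 15, 27 and 38 in the mutant, against 38.1%, 61.2% and 34.7% in the wild-type. VIT_05s0051g00670 made up 0.106%, 0.174% and 31.6% in the mutant, against 0.114%, 0.0798% and 20.3% in the wild-type. In both clones, then, the NCED gene scarcely read in flowers supplied a sizeable share in ripe berries. Within the hydroxylases VIT_18s0001g10500 made up 66.3%, 75.5% and 0.274% of reads in the mutant, against 64.3%, 58.5% and 0.267% in the wild-type, so that nearly all ripe hydroxylase reads came from VIT_02s0087g00710. Shares between genes of unlike transcript length are shares of reads and not of molecules.

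**Figure D3:**
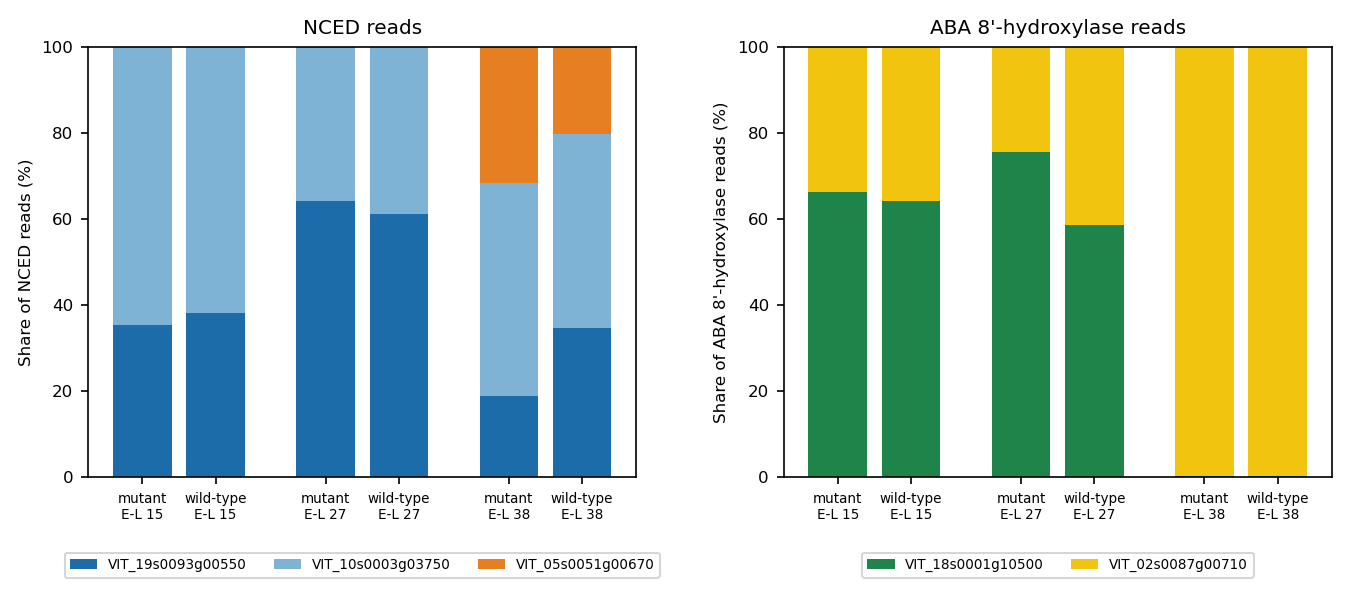
Share of NCED reads (left) and of ABA 8'-hydroxylase reads (right) taken by each gene, in percent, with 1 bar per library and the mutant left of the wild-type at each stage. VIT_05s0051g00670 took 31.6% of NCED reads in the ripe mutant and 20.3% in the ripe wild-type.

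Summed over the family, NCED gave 85.6, 73.6 and 9.49 RPM at E-L 15, 27 and 38 in the mutant, against 75.8, 83.2 and 14.8 RPM in the wild-type. The 2 hydroxylases together gave 52.0, 31.3 and 15.4 RPM in the mutant, against 40.3, 23.6 and 41.7 RPM in the wild-type. Reads of NCED per read of hydroxylase were 1.64, 2.35 and 0.615 in the mutant, against 1.88, 3.53 and 0.354 in the wild-type. Both clones had their highest value in young berries and their lowest in ripe ones. Relative to the wild-type, this quotient in the mutant was 0.876 (0.829 to 0.925) at E-L 15, 0.667 (0.622 to 0.715) at E-L 27 and 1.74 (1.55 to 1.95) at E-L 38. The mutant was thus below the wild-type at the first 2 stages and above it in ripe berries, where both sums were lower in the mutant and the hydroxylase sum was the further below. In ripe berries VIT_02s0087g00710 held 99.7% of the hydroxylase reads in each clone. At E-L 27 the 2 hydroxylases differed in opposite directions, with mutant to wild-type ratios of 1.71 for VIT_18s0001g10500 and 0.783 for VIT_02s0087g00710. The sums add genes of unlike transcript length, so the quotient describes reads and not molecules. The intervals cover counting error only, and transcripts do not measure the hormone itself.

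**Figure D4:**
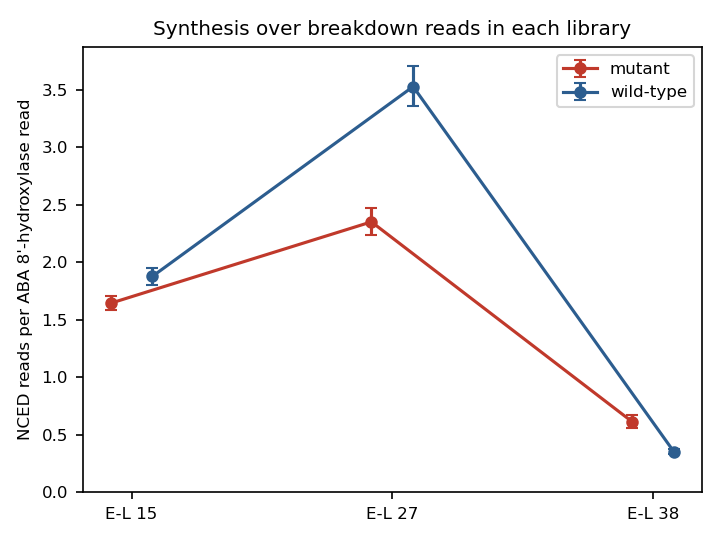
Reads of the 3 NCED genes per read of the 2 ABA 8'-hydroxylase genes in each library, with 95% counting intervals, mutant in red and wild-type in blue. The mutant lay below the wild-type at E-L 27 (2.35 and 3.53) and above it at E-L 38 (0.615 and 0.354).

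Across the 6 libraries the members fell into courses that can be read from their correlations of log2(RPM + 0.5), given as a description, since the points share clone and stage. Zeaxanthin epoxidase and VIT_18s0001g10500 ran closest (r = 0.995), and VIT_05s0051g00670 ran against the 4 declining members (r between -0.992 and -0.958). VIT_02s0087g00710 followed none of them closely (r between -0.65 and 0.67). Among 19298 other genes, r with a member was above 0.95 for 3153 genes in the case of VIT_19s0093g00550, 3531 for VIT_10s0003g03750, 1780 for VIT_05s0051g00670, 4432 for VIT_07s0031g00620 and 4295 for VIT_18s0001g10500, but for only 54 in the case of VIT_02s0087g00710. The genes nearest to VIT_02s0087g00710 were VIT_11s0103g00520 (r = 0.992) and VIT_17s0000g03600 (r = 0.989). VIT_17s0000g03600 gave 52.5, 39.8 and 53.1 RPM at E-L 15, 27 and 38 in the mutant, against 53.3, 42.6 and 87.3 RPM in the wild-type. Nearest to VIT_19s0093g00550 were VIT_02s0025g02390 and VIT_07s0129g00370 (r = 0.999 each), and nearest to VIT_05s0051g00670 were VIT_05s0062g01140 and VIT_01s0026g01570 (r = 0.999 each). VIT_15s0046g02160 and VIT_18s0001g03540 lay nearest to VIT_10s0003g03750, VIT_04s0044g01410 and VIT_10s0003g04350 to VIT_07s0031g00620, and VIT_12s0057g00400 and VIT_13s0019g00810 to VIT_18s0001g10500. With 0.05 in place of 0.5 RPM added, both genes nearest to VIT_05s0051g00670 and both nearest to VIT_18s0001g10500 were replaced by others.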

How the data were processed

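The authors sequenced poly(A) RNA as 100-bp paired ends, aligned it with BWA to the 12x v1 grapevine annotation and processed it with SAMtools. Tool versions are not given in the sources used here. The deposited counts are uniquely mapped reads summed per gene model, without reads that mapped to several places. The deposited RPM values are those counts scaled to a common library total, and recomputing them from the counts gave differences of at most 5.5e-11. Both units were used as deposited, with 6 libraries of 70331451 to 98800321 reads. A count of 3 reads, the limit that a count of 0 allows, corresponds to 0.0304 to 0.0427 RPM.

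Counts of all genes were tested with edgeR 4.0.16 (filterByExpr, TMM, quasi-likelihood, stage and clone as terms, 2 residual degrees of freedom, Benjamini-Hochberg threshold 0.05) in R 4.3.3, after a check on simulated counts. The simulated counts held no stage differences, so that check does not cover departures of clones and stages from the fit. Since there is 1 library per clone and stage, p-values set each difference against the departures of clones and stages from the fit. These departures are pooled over all stages and stand in for variation between replicates. Ratios between 2 libraries carry 95% Clopper-Pearson intervals (scipy 1.17.1) and no test, and 2-fold shares used genes averaging 1 RPM or more over both libraries. The alternatives were DESeq size factors, DESeq2 1.42.0, no filter, no stage or no clone term, leaving out stages or libraries, a mean of 10 RPM, and 0.05 in place of 0.5 RPM as the pseudocount for pattern likeness. The DESeq procedure of the study for libraries without replicates was not used here.

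The members, the seed and floral markers and the tests were chosen with earlier results of these data known, and the seed markers were named by the study from these libraries. The text names all 6 members, ABI3 from among the seed markers, the floral markers and the 2 genes of highest correlation with each member. A wider list of ABA genes, to be drawn from gene descriptions, could not be made, because 0 identifiers matched the reference gene table used here, and sequences were not used for the same reason.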

Additional observations from a re-analysis of the deposited data

Results flagged for a closer look

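Some members had effects in opposite directions, each with a counting interval clear of 1. These differences were not tested, since each clone and stage has 1 library. The ratio of mutant to wild-type for the NCED gene VIT_10s0003g03750 was 1.18 at E-L 15, 0.813 at E-L 27 and 0.709 at E-L 38. For the hydroxylase gene VIT_02s0087g00710 it was 1.22, 0.783 and 0.370 at the same stages. For zeaxanthin epoxidase, VIT_07s0031g00620, it was 0.953, 1.09 and 1.10, a much smaller swing. All of these ratios except 0.370 lay between the 5th and 95th percentiles of all genes averaging 1 RPM or more. For VIT_10s0003g03750, 13.0% of those genes had a higher ratio at E-L 15, and 14.5% and 15.4% a lower one at E-L 27 and 38. For VIT_02s0087g00710, 10.1% were higher at E-L 15, and 11.7% and 4.66% lower at E-L 27 and 38. For VIT_07s0031g00620, 40.8% were lower at E-L 15, and 23.6% and 22.2% higher at E-L 27 and 38. Between ripe berries and flowers, VIT_02s0087g00710 stood at 0.878 in the mutant and at 2.88 in the wild-type, and the mutant value lay above 1 under both other scalings.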

How the results depend on the processing

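The number of genes called for clone was 0 in edgeR and 61 in DESeq2, and 0 to 1 over the fits without 1 library, the 1 being without the wild-type E-L 38 library. No alternative called a member for clone, but over the fits without 1 library the clone log2 fold change ran between -0.82 and -0.0055 for VIT_02s0087g00710, -0.32 and -0.0063 for VIT_10s0003g03750, 0.063 and 0.61 for VIT_18s0001g10500, 0.11 and 0.51 for VIT_05s0051g00670, and 0.049 and 0.21 for VIT_07s0031g00620. The number called at E-L 27 against E-L 15 was 5219, and 0 to 9633 over the fits without 1 library, being 0 without any library of those 2 stages. The number called at E-L 38 against E-L 27 was 15089, and 9393 to 15212 over such fits, lowest without the mutant E-L 27 library (9393) and without the wild-type E-L 27 library (9665). Several uncalled values changed sign. The clone log2 fold change of VIT_19s0093g00550 became 0.0013 without both E-L 38 libraries, 0.0034 without the wild-type E-L 38 library and 0.0036 without the mutant one (range over the fits without 1 library -0.70 to 0.0036). These fits rest on the same clone comparison, at E-L 15 and E-L 27, so they show 1 sign change. With no term for stage, the clone log2 fold change of VIT_10s0003g03750 became 0.021. The log2 fold change of VIT_05s0051g00670 at E-L 27 against E-L 15 became -0.07 without the mutant E-L 15 library and -0.37 without the mutant E-L 27 library (range -0.37 to 0.50). The log2 ratio of VIT_02s0087g00710 between ripe berries and flowers of the mutant was 0.25 with TMM factors and 0.28 with DESeq size factors. Over these other scalings, 30 values of stage ratios moved outside their counting interval, 2 changed direction and 40 stayed within it. Of the clone ratios, 3 values moved and 33 stayed. Those that moved were VIT_02s0087g00710 in ripe berries under both scalings and zeaxanthin epoxidase in ripe berries under DESeq size factors. With a mean of at least 10 RPM, 3.51% of genes were more than 2-fold lower and 1.1% higher in the ripe mutant. Of the 12 nearest genes, 5 were kept with 0.05 RPM added, including both of VIT_02s0087g00710 and none of VIT_05s0051g00670 or VIT_18s0001g10500. The clone test compared mutant and wild-type within stage, and without that term the log2 fold change of VIT_19s0093g00550 was -0.086 and the count of genes called stayed at 0. Depth limited VIT_18s0001g10500 at E-L 38 and VIT_05s0051g00670 at E-L 15 and E-L 27, and counting intervals do not cover variation between plants.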
